A study of Mus musculus with 4 samples.

Results

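The histone-modifying enzymes described here are 77 of the 23936 gene rows of one expression table from mouse G1ER erythroblasts. They are the genes whose symbols name a histone lysine or arginine methyltransferase, an acetyltransferase, a deacetylase or a lysine demethylase. Of 80 symbols that fitted the naming rule, 3 were set aside, namely Kdm1a, Hdac1 and Hdac2. The choice used symbols only and no measured value. Of the 77 genes, 69 had a mean of at least 1 FPKM (fragments for each kilobase of transcript, relative to all mapped fragments) over the libraries, as did 8964 genes in the whole table.

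Histone-modifying enzymes place or remove small chemical groups on the tails of the proteins that DNA is wound around. Methylation of histone H3 at lysine 4 (H3K4) is typical of active promoters and enhancers, and that at lysine 36 (H3K36) of transcribed gene bodies. Methylation at lysines 9 and 27 (H3K9, H3K27) is typical of silenced chromatin, while acetylation generally accompanies open chromatin. As red cells mature, their chromatin condenses and most genes are shut down while globin and heme genes are strongly transcribed.

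G1ER cells lack their own GATA1, the master transcription factor of the erythroid lineage, and carry a fusion of GATA1 to the estrogen receptor that beta-estradiol switches on. The study compared wild-type G1ER cells with a Chd7-/- line of the same cells, each sampled before beta-estradiol (0 h) and 24 h into it, giving 4 groups of 1 library. CHD7 is an ATP-dependent chromatin remodeler, and the study asked what its loss does to erythroid maturation. All 4 cultures received erythropoietin and medium conditioned with stem cell factor, and total RNA was depleted of ribosomal RNA before library preparation. The labels do not say how the knockout line was made or whether it is a single clone, so genotype and line cannot be told apart. With 1 library per group there are no replicates and no p-values, and the statements concern these libraries only.

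Approximate depths behind the FPKM values were between 14.9 M and 17.7 M fragments (M, mega). Chd7 itself was listed at 0 in every library, also in wild type, and so gives no check of the genotype labels. The 7 erythroid markers summed to 523 FPKM in wild type at 0 h, 8305 in wild type at 24 h, 718 in the knockout at 0 h and 13735 in the knockout at 24 h. The 3 B cell markers and the 5 fibroblast and endothelial markers were listed at 0 throughout, and the 5 myeloid markers summed to at most 0.11 FPKM. Of the 3 T cell markers only Cd3g had a value, between 0.07 and 2.02 FPKM, and the 5 megakaryocyte markers summed to between 4.13 and 5.44. The 5 mast cell and basophil markers summed to 19.3 FPKM at 0 h and 2.30 at 24 h in wild-type cells and to 44.0 and 1.30 in knockout cells, mainly through Cpa3 and Ms4a2. Their part in the results on enzymes was not tested, and in RNA from a whole culture fewer cells of a type and less RNA per cell cannot be told apart.

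Ratios below are log2 ratios of FPKM + 1, which understate differences at low levels, and they are followed by a 95% interval from counting alone. That interval was computed from the approximate depth and the median length of a gene's coding transcripts, and it holds no variation between cultures. With the longest transcript instead it would be narrower, by much for genes such as Nsd1, Setd1a, Setd2 and Crebbp. A gene was called at 2-fold, with 1.5-fold as a looser mark. Summed FPKM of the whole table ranged from 753591 to 1604980, highest in the knockout at 0 h, where small RNA and predicted loci held 69.5% of the sum against 30.4% to 43.6% elsewhere. Scaling each library to an equal sum (TPM scaling) therefore shifted the median log2 ratio of all genes from -0.12 to 0.83 for the knockout response, from -0.07 to -0.78 for knockout against wild type at 0 h, and from -0.02 to 0.72 for the difference of responses. For the wild-type response it shifted from -0.11 to 0.11, and at 24 h the genotype median shifted only from -0.09 to -0.04. Directions below hold for FPKM as deposited.

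The enzymes spanned a wide range of levels, and Setdb1 and Prmt1 were the most abundant. Mean FPKM over the 4 libraries ran from 1.63 for Kmt2a, a trithorax-type H3K4 methyltransferase, to 63.3 for Setdb1, an H3K9 methyltransferase that silences retroelements. Next below Setdb1 stood Prmt1 with a mean of 56.2 FPKM, the main enzyme of asymmetric arginine dimethylation. Kdm5b, which demethylates H3K4, followed with 42.6 FPKM. Ehmt2 (G9a, an H3K9 methyltransferase) had 42.2 FPKM and Setd3, an actin histidine methyltransferase with a SET domain, had 42.0. With 1 library per group the order of Kdm5b, Ehmt2 and Setd3 is not separated. Summed over each class, the 8 arginine methyltransferases gave 212 FPKM in wild type at 0 h, the 17 lysine demethylases 202 and the 6 H3K9 methyltransferases 183. The 8 H3K4 methyltransferases together gave 28.9 FPKM in the same library, and the 7 sirtuins 56.6.

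**Figure D1:**
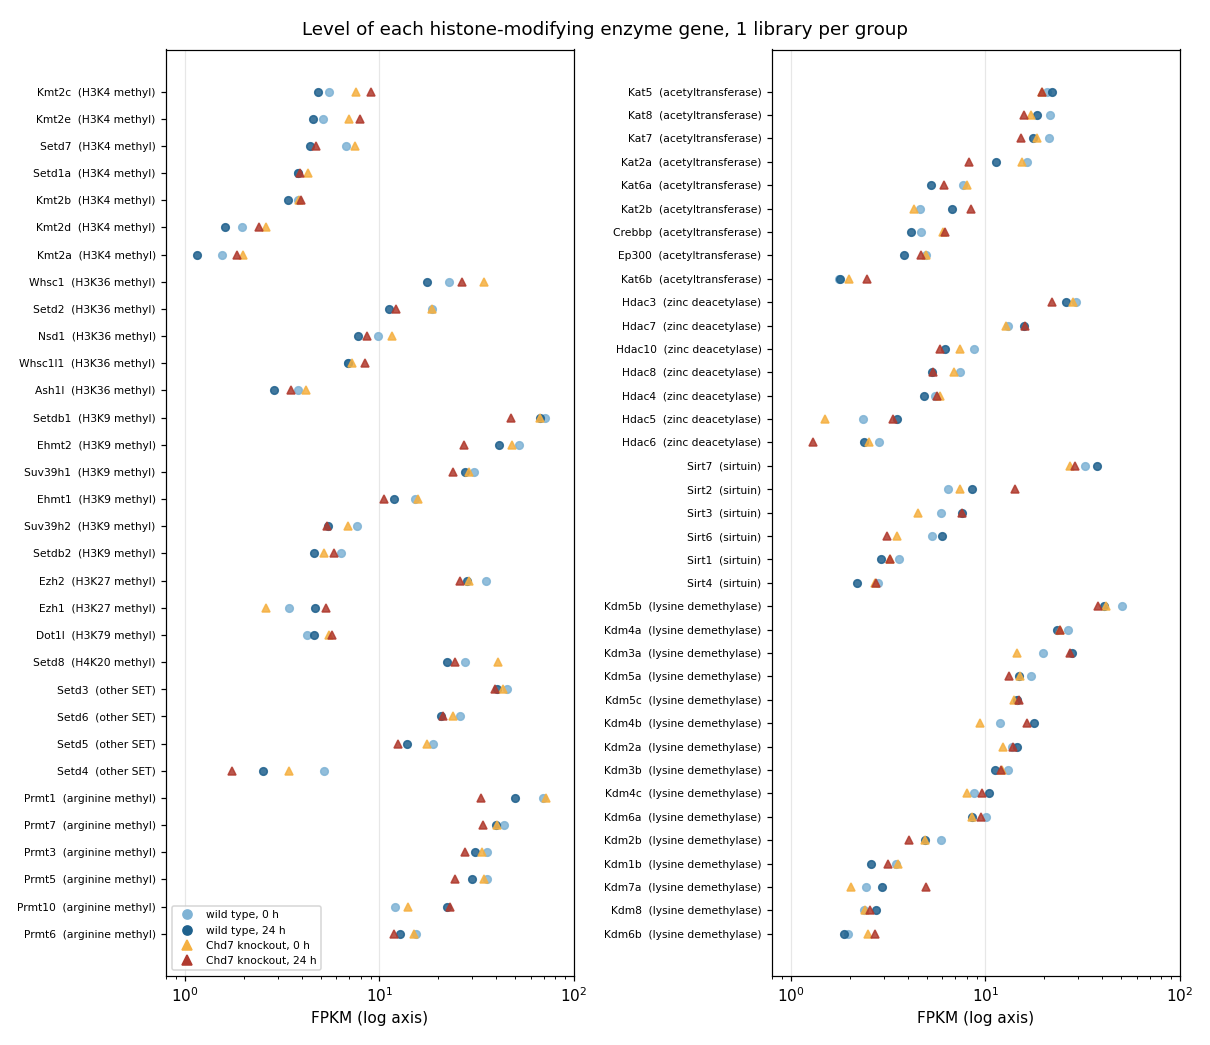
FPKM on a log axis for the 69 enzymes past the filter, ordered by class and mean level. Circles are wild type and triangles the Chd7 knockout, pale at 0 h and dark at 24 h of estradiol, with 1 library per group and no error bars. Levels run from Kmt2a and Kat6b at the low end to Setdb1 and Prmt1 at the high end.

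A further 8 enzymes stayed under 1 FPKM on average. Hdac9, Prmt8 and the Y-linked Kdm5d were listed at 0 in all 4 libraries. The highest values of Sirt5, Kdm4d and Prmt2 were 0.16, 0.18 and 0.27 FPKM. Hdac11, a deacetylase that also removes fatty acyl groups, reached 0.77 FPKM in the knockout at 24 h. Setd1b, an H3K4 methyltransferase of the COMPASS type, lay just outside the filter with a mean of 0.70 FPKM, and Kmt2a lay just inside it.

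Most enzyme transcripts of wild-type cells stood within 1.5-fold of their 0 h level after 24 h of estradiol. More of them were lower than higher, as among all genes. None of the 69 enzymes reached 2-fold, where 2.92% of all genes did. At 1.5-fold, 1 enzyme was higher (1.45% of the 69, against 4.6% of all genes) and 2 were lower (2.90%, against 6.64%). The median log2 ratio was -0.19 for the enzymes and -0.11 for all genes. Of the 69 enzymes 19 stood above 0 and 50 below, where 35.9% of all genes stood above. The ratio exceeded its counting interval for 51 enzymes, 40 of them lower at 24 h and 11 higher. How many of all genes did so was not computed, so this count is no trait of the enzymes.

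The gene higher at 24 h was Prmt10, now named Prmt9 in RefSeq, which symmetrically dimethylates an arginine of a splicing factor. Its levels were 12.01 FPKM in wild type at 0 h, 22.3 in wild type at 24 h, 13.96 in the knockout at 0 h and 23.2 in the knockout at 24 h. Both 24 h libraries stood above both 0 h libraries, with log2 ratios of 0.84 ± 0.14 in wild type and 0.69 ± 0.14 in the knockout. Those lower were Setd2, which trimethylates H3K36 while travelling with RNA polymerase II, and Setd4, a less studied SET-domain protein. Setd2 had 18.6 and 11.2 FPKM at 0 and 24 h in wild-type cells, and 18.6 and 12.1 in knockout cells. Setd4 had 5.16 and 2.51 FPKM in the wild-type libraries against 3.42 and 1.74 in the knockout libraries. Both genes were lower at 24 h in each genotype, with log2 ratios of -0.69 ± 0.14 and -0.58 ± 0.15 for Setd2, and -0.81 ± 0.35 and -0.69 ± 0.40 for Setd4.

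In the Chd7 knockout more enzymes were past 1.5-fold after 24 h of estradiol, as were more of all genes. Prmt1 was the 1 enzyme past 2-fold (1.45%, against 7.02% of all genes). At 1.5-fold, 9 enzymes were higher (13.0%, against 8.4% of all genes) and 6 were lower (8.70%, against 13.9%). Those higher were Ezh1, Hdac5, Kat2b, Kdm3a, Kdm4b, Kdm7a, Prmt10, Sirt2 and Sirt3, and those lower were Ehmt2, Hdac6, Kat2a, Prmt1, Setd4 and Setd8. The median log2 ratio was -0.10 for the enzymes and -0.12 for all genes. Above 0 stood 28 enzymes and below it 41, where 37.4% of all genes stood above. Centring the libraries on their median or upper quartile placed Kdm7a past 2-fold and Prmt1 short of it, with Prmt1 at -0.97 in both. Under TPM scaling Prmt1 stood at -0.02 beside an all-gene median of 0.83.

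Across the 69 enzymes the wild-type and knockout responses, computed from separate libraries, ran alike. They correlated with Pearson's r of 0.84 and Spearman's rho of 0.80, given as a description since the genes of one library share its depth and composition. Of the 69, 17 were higher at 24 h in both genotypes, 39 were lower in both and 13 went opposite ways. Over all 8964 genes rho was 0.78 and r 0.55, with 2429 higher in both, 4803 lower in both and 1710 opposite, so the enzymes' rank agreement was close to that of genes in general. The response was larger in size in the knockout for 35 enzymes, and for 5945 of the 8964 genes overall.

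**Figure D2:**
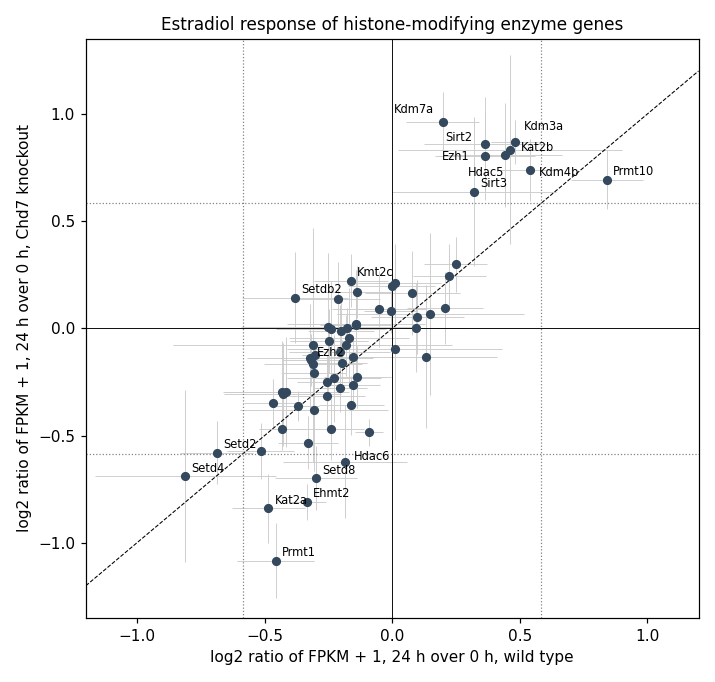
Log2 ratio of FPKM + 1 at 24 h over 0 h in wild type (horizontal) and in the Chd7 knockout (vertical) for the 69 enzymes. Grey bars are 95% counting intervals, dotted lines mark 1.5-fold and the dashed line marks equal responses. Prmt1 lies lowest in the knockout at -1.08, and Kdm7a lies highest there at 0.96 but at 0.20 in wild type.

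The H3K27 methyltransferases Ezh2 and Ezh1, alternative catalytic subunits of Polycomb repressive complex 2 (PRC2), stood on opposite sides of their 0 h level after estradiol. With TPM scaling both were above it in the knockout. Ezh2 had 35.2 and 28.1 FPKM at 0 and 24 h in wild-type cells, and 28.9 and 26.0 in knockout cells. Ezh1 had 3.41 and 4.67 FPKM in wild-type cells, and 2.60 and 5.30 in knockout cells. Ezh2 was therefore highest in wild type at 0 h, while both 24 h libraries exceeded both 0 h libraries for Ezh1. The log2 ratio of Ezh1 was 0.36 ± 0.19 in wild type against 0.80 ± 0.20 in the knockout, against -0.32 ± 0.11 and -0.15 ± 0.12 for Ezh2. The ratio of Ezh2 to Ezh1, which needs no scaling between libraries, went from 10.3 to 6.004 in wild type and from 11.1 to 4.90 in the knockout.

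Of 9 other PRC2 genes, 8 passed the filter and all 8 were lower at 24 h in wild type, where 35.9% of all genes were above 0. Their median was -0.34 beside -0.11 for all genes. In the knockout, where 37.4% of all genes were above 0, 7 of the 8 were lower, with a median of -0.43 beside -0.12. The exception was Phf1, an accessory subunit that binds methylated H3K36, with 1.04 and 0.80 FPKM in the wild-type libraries against 0.48 and 1.70 in the knockout libraries, a range near the filter. Rbbp7, a histone-binding subunit shared with other complexes, had 210 and 167 FPKM in wild-type cells, and 183 and 113 in knockout cells. Its log2 ratio of -0.69 in the knockout was the lowest of the list. Mtf2, a DNA-binding accessory subunit, was the lowest in wild type at -0.62, with 25.1 and 16.0 FPKM there.

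The acetyltransferases Kat2a (GCN5) and Kat2b (PCAF), alternative catalytic subunits of the SAGA and ATAC coactivators, gave a second such exchange. Kat2a had 16.3 and 11.3 FPKM at 0 and 24 h in wild-type cells, and 15.5 and 8.20 in knockout cells. Kat2b had 4.59 and 6.70 FPKM in the wild-type libraries against 4.30 and 8.45 in the knockout libraries. The 24 h libraries were the lower ones for Kat2a and the higher ones for Kat2b in each genotype. Log2 ratios were -0.48 ± 0.14 and -0.84 ± 0.16 for Kat2a, and 0.46 ± 0.44 and 0.83 ± 0.44 for Kat2b, in wild type and knockout. The ratio of Kat2a to Kat2b went from 3.54 to 1.69 in wild type and from 3.60 to 0.97 in the knockout, where the genes stood level at 24 h. All 14 SAGA and ATAC partners listed passed the filter, with 1 above 0 in wild type and 4 in the knockout, where 35.9% and 37.4% of all genes were. Their medians were -0.19 and -0.24, beside -0.11 and -0.12 for all genes. Ccdc101 (Sgf29, the reader of H3K4 methylation in these complexes) was lowest in both, with 23.8 and 13.5 FPKM in wild-type cells, and 18.6 and 9.44 in knockout cells. Its log2 ratios were -0.78 and -0.91.

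**Figure D3:**
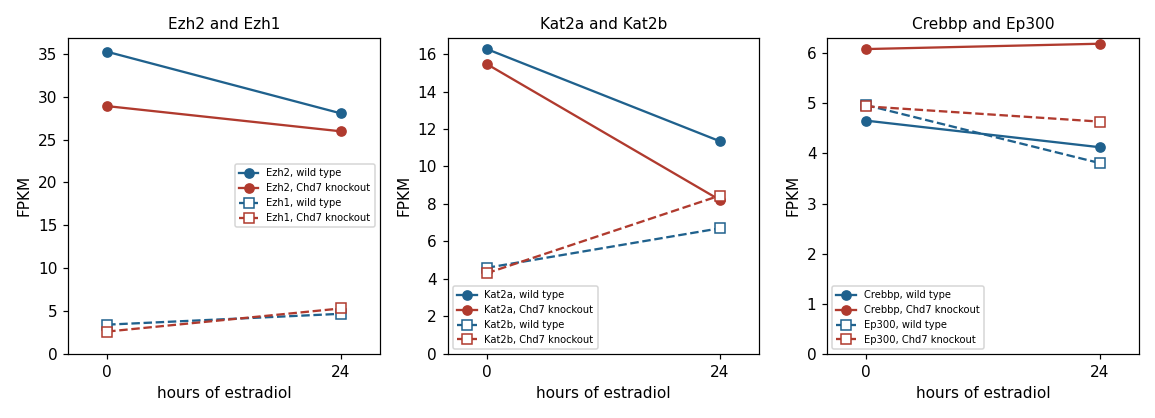
FPKM at 0 and 24 h of estradiol for 3 pairs of related enzymes, with wild type in blue and the Chd7 knockout in red, 1 library per point and no error bars. Filled circles and solid lines are Ezh2, Kat2a and Crebbp, and open squares and dashed lines are Ezh1, Kat2b and Ep300. Kat2a and Kat2b meet near 8 FPKM in the knockout at 24 h, while Ezh2 stays above Ezh1 in all 4 libraries.

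The 250 bases upstream of annotated gene starts were read for 62 of the 77 enzymes, in 84 promoters. The 6-letter strings AGATAA or AGATAG, and also TGATAA or TGATAG, on either strand, which fit the known binding letters of GATA factors, occurred there in 20 of the 84 (23.8%). Among all 32851 RefSeq promoters 26.5% held one. On either strand, TGTGGT, letters bound by RUNX factors, occurred in 14.3% of the enzyme promoters and 14.05% of all. A string of letters is no evidence of binding. The windows below belong to the 5 genes past 1.5-fold in the knockout response whose promoters held a GATA string, shown because they include both directions and the Kat2a and Kat2b pair. They are RefSeq sequence of GRCm38.p6, read 5′ to 3′ along the gene, 60 bases each, with every GATA string in the window in capitals. They lie at chr11:100712618-100712677 (minus strand, Kat2a), chr17:53584026-53584085 (plus, Kat2b, at a start inside the gene's span), chr7:44986475-44986534 (minus, Prmt1), chr5:124439703-124439762 (plus, Setd8) and chr7:28766667-28766726 (plus, Sirt2).
Kat2a: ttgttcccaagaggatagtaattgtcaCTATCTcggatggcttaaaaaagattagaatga
Kat2b: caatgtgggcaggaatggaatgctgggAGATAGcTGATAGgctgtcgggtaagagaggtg
Prmt1: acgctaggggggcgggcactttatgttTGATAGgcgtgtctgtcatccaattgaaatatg
Setd8: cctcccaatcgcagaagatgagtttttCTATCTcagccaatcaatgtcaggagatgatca
Sirt2: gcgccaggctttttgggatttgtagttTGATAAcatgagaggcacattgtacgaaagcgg
The first letter of the capitals lies 183, 73, 87, 200 and 58 bases before the annotated start, in the order printed. The second string of Kat2b begins 66 bases before the start, and the promoter of Sirt2 holds a further one, outside the window shown, at 103. These genes, lower (Kat2a, Prmt1, Setd8) or higher (Kat2b, Sirt2) at 24 h, were picked for holding a string, so its presence is no result. No string was found for the other enzymes past 1.5-fold in the knockout response, though not all 77 enzymes were read.

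Crebbp and Ep300 (CBP and p300) are the related enzymes that acetylate H3K27 at enhancers. Crebbp had 4.65 and 4.12 FPKM at 0 and 24 h in wild-type cells, and 6.08 and 6.19 in knockout cells, so both knockout libraries stood above both wild-type libraries. Ep300 had 4.96 and 3.81 FPKM in the wild-type libraries against 4.94 and 4.64 in the knockout libraries. The genotype log2 ratio of Crebbp was 0.32 ± 0.27 at 0 h and 0.49 ± 0.25 at 24 h, whereas that of Ep300 was -0.01 ± 0.55 and 0.23 ± 0.54. The ratio of Crebbp to Ep300 stood at 0.94 and 1.08 in wild type against 1.23 and 1.34 in the knockout. Kat6a and Kat6b are the related MOZ and MORF enzymes of H3 acetylation. Kat6a had 7.63 and 5.25 FPKM in wild-type cells, and 8.03 and 6.09 in knockout cells, lower at 24 h in each genotype, and Kat6b stayed between 1.76 and 2.46 in all 4 libraries. Kat5 (Tip60), Kat7 (HBO1) and Kat8 (MOF), which acetylate H4 or H3 in MYST-type complexes, ranged from 15.3 to 22.1 FPKM over the 4 libraries. Of the exon bases of Kat5, 12.1% overlap Rnaseh2c on the opposite strand, and whether counting used strand is not given in the sources used here. Of 16 MYST complex partners, all past the filter, 5 were above 0 in each genotype, where 35.9% and 37.4% of all genes were, with medians of -0.16 and -0.20 beside -0.11 and -0.12. Brpf3, a scaffold of MYST acetyltransferase complexes, was the highest in the knockout at 0.80, with 0.91 and 1.42 FPKM in the wild-type libraries against 1.26 and 2.93 in the knockout libraries. Kansl2, a subunit of the Kat8-containing NSL complex, was the lowest in both genotypes, with 26.7 and 17.2 FPKM in wild-type cells, and 26.6 and 15.2 in knockout cells.

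Among the H3K9 methyltransferases all 6 were lower at 24 h in wild type, with a median of -0.33 beside -0.11 for all genes. In the knockout 5 of 6 were lower, with a median of -0.40 beside -0.12. Above 0 stood 35.9% of all genes in wild type and 37.4% in the knockout. Under TPM scaling 5 of the 6 stayed below the all-gene median in each genotype, though 2 in wild type and all 6 in the knockout were then above 0. Ehmt2 had 52.1 and 41.2 FPKM in the wild-type libraries against 48.3 and 27.1 in the knockout libraries. Setdb1 had 71.2 and 66.8 FPKM in wild-type cells, and 67.3 and 47.8 in knockout cells. For both genes the knockout at 24 h was the lowest of the 4 libraries. The log2 ratios in the knockout were -0.81 ± 0.09 for Ehmt2 and -0.48 ± 0.06 for Setdb1, against -0.33 ± 0.07 and -0.09 ± 0.05 in wild type. At 24 h the knockout stood below wild type by a log2 ratio of -0.58 ± 0.09 for Ehmt2 and -0.48 ± 0.06 for Setdb1. Ehmt1 (GLP), the partner of Ehmt2 in its complex, had 15.2 and 11.9 FPKM in the wild-type libraries against 15.8 and 10.6 in the knockout libraries. The ratio of Ehmt2 to Ehmt1 was 3.43 and 3.46 in wild type against 3.06 and 2.56 in the knockout. Suv39h1, which trimethylates H3K9 in pericentric heterochromatin, had 30.8 and 27.6 FPKM in wild-type cells, and 29.0 and 24.0 in knockout cells, and 14.6% of its exon bases overlap Gm14820 on the opposite strand. Its paralogue Suv39h2 had 7.64 and 5.42 FPKM in the wild-type libraries against 6.88 and 5.36 in the knockout libraries, so the ratio of the pair stayed between 4.03 and 5.09. Setdb2 was the exception of the class in the knockout, with 6.33 and 4.62 FPKM in wild-type cells, and 5.16 and 5.81 in knockout cells. Its response differed between genotypes by 0.52 ± 0.30, knockout minus wild type.

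The arginine methyltransferases past the filter other than Prmt10 were lower at 24 h in both genotypes. Above 0 stood 35.9% of all genes in wild type and 37.4% in the knockout. Under TPM scaling, however, 3 of the 6 in wild type and 5 of the 6 in the knockout, Prmt10 included, were above 0. Prmt1 (chromosome 7, 44976755 to 44986420, GRCm38) had 69.0 and 50.04 FPKM at 0 and 24 h in wild-type cells, and 72.1 and 33.5 in knockout cells. The 0 h libraries were close together and the knockout at 24 h was the lowest. Its log2 ratio was -0.46 ± 0.15 in wild type against -1.08 ± 0.17 in the knockout, a difference of -0.63 ± 0.23. Prmt5, the main enzyme of symmetric arginine dimethylation, had 35.7 and 30.1 FPKM in the wild-type libraries against 34.5 and 24.6 in the knockout libraries. Prmt3, which modifies a ribosomal protein, ran from 35.9 in wild type at 0 h to 27.6 in the knockout at 24 h, and Prmt7, a monomethylating enzyme, from 43.8 to 34.1. Prmt6, which methylates H3 arginine 2, had 15.4 and 12.8 FPKM in wild-type cells, and 15.1 and 11.9 in knockout cells, and 23.4% of its exon bases overlap C130013H08Rik on the opposite strand. All 6 arginine methyltransferases past the filter had a lower response in the knockout than in wild type. Their median difference was -0.12 beside -0.02 for all genes, of which 46.3% had a difference above 0. With TPM scaling all 6 differences were above 0, and 4 of them were below the all-gene median of 0.72. Carm1, an arginine methyltransferase outside the naming rule, had 10.1 and 7.51 FPKM in the wild-type libraries against 9.41 and 5.70 in the knockout libraries.

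The H4K20 monomethyltransferase Setd8 (Kmt5a in RefSeq), needed for chromatin condensation and cell cycle progress, was highest in the knockout at 0 h. Its levels were 27.7 and 22.3 FPKM in wild-type cells, and 40.6 and 24.6 in knockout cells. The log2 ratio over 24 h was -0.30 ± 0.16 in wild type against -0.70 ± 0.15 in the knockout. Setd8 lies on chromosome 5, where most genes were higher in the knockout, as described below. Suv420h2, which converts H4K20 monomethylation to higher states and is outside the naming rule, had 13.3 and 18.8 FPKM in the wild-type libraries against 10.6 and 32.0 in the knockout libraries. It was highest in the knockout at 24 h, with log2 ratios of 0.47 and 1.503 and a difference of 1.03. Its relative Suv420h1 differed less, with 4.53 and 5.36 FPKM in wild-type cells, and 4.30 and 5.62 in knockout cells. Of 28 such enzymes listed under other symbols, 19 were in the table and 15 passed the filter. In the knockout response Suv420h2 and Smyd5 were past 2-fold, 2 of the 15 beside 7.02% of all genes. At 1.5-fold Suv420h2 was the 1 higher (8.4% of all genes), and Carm1 and Smyd5 were the 2 lower (13.9%). Smyd5, a SET-domain methyltransferase, had log2 ratios over 24 h of -0.600 (wild type) and -1.203 (knockout), from levels of 20.3 and 13.0 FPKM in the wild-type libraries against 19.9 and 8.08 in the knockout libraries.

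Lysine demethylases supplied 3 of the 9 enzymes higher at 24 h in the knockout. Kdm3a, which removes H3K9 methylation, had 19.7 and 27.9 FPKM at 0 and 24 h in wild-type cells, and 14.5 and 27.3 in knockout cells. Kdm4b, which acts on trimethylated H3K9, had 11.9 and 17.8 FPKM in wild-type cells, and 9.35 and 16.3 in knockout cells. Kdm7a (chromosome 6, 39136620 to 39206773), which removes dimethylation from H3K9 and H3K27, had 2.43 and 2.94 FPKM in the wild-type libraries against 2.04 and 4.92 in the knockout libraries. For Kdm3a and Kdm4b the knockout was lower than wild type at 0 h and near it at 24 h, whereas for Kdm7a it was above wild type at 24 h. Log2 ratios over 24 h were 0.48 ± 0.09 and 0.87 ± 0.10 for Kdm3a, and 0.54 ± 0.13 and 0.74 ± 0.14 for Kdm4b, in wild type and knockout. For Kdm7a they were 0.20 ± 0.14 and 0.96 ± 0.14, a difference of 0.76 ± 0.20 and the largest among the 69 enzymes. Of 15 demethylases past the filter, 13 had a positive difference of responses, where 46.3% of all genes did. The median of the 15 was 0.17 beside -0.02 for all genes, and the exceptions were Kdm2b at -0.01 and Kdm8 at -0.08. The part of transcript length, with which this difference went over all genes, was not tested. Under TPM scaling 13 of the 15 were above the all-gene median of 0.72.

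Kdm5b was the most abundant demethylase, at 50.4 and 40.7 FPKM in wild-type cells, and 41.5 and 38.0 in knockout cells. It was highest in wild type at 0 h, with the other 3 libraries close together. Kdm5a, a further H3K4 demethylase, ranged from 13.3 to 17.1 FPKM and its X-linked relative Kdm5c from 13.99 to 14.9. Kdm4a, which acts on H3K9 and H3K36, ranged from 23.4 to 26.6 FPKM, and its relative Kdm4c from 7.99 to 10.4. Kdm2a, an H3K36 demethylase with a CpG-binding domain, ranged from 12.3 to 14.5, and Kdm3b, a relative of Kdm3a, from 11.3 to 13.1, with 24.6% of its exon bases overlapping Gm26538 on the opposite strand. The H3K27 demethylases Kdm6a (UTX) and Kdm6b (JMJD3) stood at different levels. Kdm6a had 10.05 and 8.54 FPKM in the wild-type libraries against 8.52 and 9.48 in the knockout libraries. Kdm6b had 1.97 and 1.87 FPKM in wild-type cells, and 2.47 and 2.70 in knockout cells. Kdm6a exceeded Kdm6b in all 4 libraries, by ratios of 5.10 and 4.58 in wild type against 3.44 and 3.51 in the knockout. Kdm1b, the flavin-dependent relative of Kdm1a, stayed between 2.58 and 3.56 FPKM, and Kdm8, better known as a hydroxylase and protease than as a demethylase, between 2.38 and 2.74.

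Of the 9 zinc-dependent deacetylases 7 passed the filter, and 5 of these were lower at 24 h in each genotype. Among all genes 35.9% in wild type and 37.4% in the knockout were above 0. Medians of the 7 were -0.17 and -0.30 beside -0.11 and -0.12 for all genes. Under TPM scaling, however, 4 of the 7 in wild type and all 7 in the knockout were above 0. Hdac3, the catalytic subunit of nuclear receptor corepressor complexes, had 29.1 and 26.0 FPKM in the wild-type libraries against 28.4 and 21.9 in the knockout libraries. Hdac7, a class IIa enzyme, had 13.1 and 15.7 FPKM in wild-type cells, and 12.8 and 16.0 in knockout cells. Hdac5, of the same class, had 2.33 and 3.52 FPKM in the wild-type libraries against 1.49 and 3.36 in the knockout libraries. Both class IIa genes were higher at 24 h in each genotype, Hdac5 by log2 ratios of 0.44 ± 0.22 and 0.81 ± 0.24. Hdac4, also of class IIa, differed less, between 4.804 and 5.85 FPKM, and 22.4% of its exon bases overlap Gm26720 on the opposite strand. Hdac6, the cytoplasmic tubulin deacetylase, had 2.84 and 2.38 FPKM in wild-type cells, and 2.52 and 1.29 in knockout cells, and was lowest in the knockout at 24 h. Hdac8, a deacetylase of cohesin, ranged from 5.28 to 7.38 FPKM and Hdac10, a polyamine deacetylase, from 5.83 to 8.71, each lower at 24 h in both genotypes. Among the corepressor partners of Hdac3, 4 passed the filter. Tbl1x, a subunit of these corepressors, had the lowest ratio of the 4 in both genotypes, with 23.4 and 14.9 FPKM in the wild-type libraries against 21.9 and 13.4 in the knockout libraries.

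Of the sirtuins, deacylases that depend on NAD, 4 of the 6 past the filter were above their 0 h level at 24 h in each genotype. Among all genes 35.9% were in wild type and 37.4% in the knockout. The medians of the 6 were 0.17 and 0.05, beside -0.11 and -0.12 for all genes. Under TPM scaling all 6 were above 0 in the knockout, where the all-gene median was 0.83. Sirt2 (chromosome 7, 28766752 to 28788665), a mainly cytoplasmic deacetylase of tubulin and H4K16, had 6.41 and 8.53 FPKM in wild-type cells, and 7.42 and 14.3 in knockout cells. The knockout at 24 h stood above the other 3 libraries, with a log2 ratio of 0.86 ± 0.22 over 24 h and of 0.68 ± 0.20 against wild type. Sirt3, of mitochondria, had 5.88 and 7.59 FPKM in the wild-type libraries against 4.49 and 7.54 in the knockout libraries. Of its exon bases 5.7% overlap Psmd13 and 7.0% overlap Ric8a, both on the opposite strand. Sirt6, which deacetylates H3K9 at telomeres and promoters, had 5.34 and 5.96 FPKM in wild-type cells, and 3.51 and 3.12 in knockout cells. Both knockout libraries of Sirt6 stood below both wild-type libraries, by log2 ratios of -0.49 ± 0.31 at 0 h and -0.76 ± 0.30 at 24 h. Sirt7, a nucleolar enzyme acting on H3K18, was likewise lower in the knockout, with 32.4 and 37.6 FPKM in the wild-type libraries against 27.1 and 29.0 in the knockout libraries. Sirt1, a nuclear deacetylase of histones and p53, stayed between 2.90 and 3.60 FPKM and Sirt4, a mitochondrial enzyme, between 2.19 and 2.80.

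Between genotypes the enzymes differed little before estradiol. At 0 h none of the 69 reached 2-fold, where 1.08% of all genes did. At 1.5-fold none was higher (1.83% of all genes) and none was lower (2.31%). The median log2 ratio of knockout over wild type was -0.08 for the enzymes and -0.07 for all genes. Their counting interval was exceeded by 31 enzymes, 11 higher and 20 lower, and this count was not made for all genes.

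After 24 h of estradiol the enzymes as a whole stood slightly higher in the knockout than genes in general. None reached 2-fold (1.85% of all genes). At 1.5-fold 4 were higher in the knockout (5.80%, against 3.51% of all genes), namely Kdm7a, Kmt2c, Kmt2e and Sirt2, and Sirt6 was lower (1.45%, against 5.02%). The median log2 ratio was 0.03 for the enzymes and -0.09 for all genes, and 44 of the 69 stood above the all-gene median. The genotype ratios at 0 h and at 24 h, from separate libraries, correlated across the 69 enzymes with r of 0.60 and rho of 0.56, and 22 enzymes were higher at both times, 30 lower at both and 17 opposite. Over all 8964 genes r was 0.35 and rho 0.45, with 1866 higher at both times, 4307 lower at both and 2777 opposite. Over the 63 enzymes off chromosome 5 r was 0.51 and rho 0.48.

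The difference of responses, knockout minus wild type, reached 2-fold for none of the enzymes (1.23% of all genes). At 1.5-fold Kdm7a was higher (2.96% of all genes) and Prmt1 lower (2.8%), each 1.45% of the enzymes. The median was 0.10 for the enzymes and -0.02 for all genes. Of the 69 enzymes 45 were above 0, where 46.3% of all genes were. The difference also went with transcript length over all genes, as described below. Beyond Kdm7a and Prmt1 the differences were highest for Setdb2 (0.52 ± 0.30), Sirt2 (0.50 ± 0.32), Ezh1 (0.44 ± 0.28) and Kdm3a (0.39 ± 0.14). They were lowest, after Prmt1, for Ehmt2 (-0.48 ± 0.11), Hdac6 (-0.44 ± 0.36), Setd8 (-0.40 ± 0.22) and Setdb1 (-0.39 ± 0.08).

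The H3K4 and H3K36 methyltransferases lay on the knockout side at both times. All 7 H3K4 methyltransferases past the filter were higher in the knockout, with a median log2 ratio of 0.22 at 0 h and 0.39 at 24 h, beside -0.07 and -0.09 for all genes. The class was drawn by name and includes Kmt2e, which is not known as an active methyltransferase. The 5 H3K36 methyltransferases were all higher as well, with medians of 0.12 and 0.21. Above 0 stood 34.6% of all genes at 0 h and 38.1% at 24 h. At 0 h only Whsc1 among the 5 H3K36 enzymes exceeded its counting interval as computed. For Nsd1 and Setd2 that interval rests on a short median transcript. Under TPM scaling at 0 h none of either class stood above 0, but all 7 and all 5 stayed above the all-gene median of -0.78. They stood above the all-gene median at both times in each scaling, pseudocount and filter tried, over the members that passed.

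Kmt2c and Kmt2d are the catalytic subunits of the enhancer-type COMPASS complexes. Kmt2c had 5.51 and 4.82 FPKM at 0 and 24 h in wild-type cells, and 7.58 and 9.02 in knockout cells. Kmt2d had 1.95 and 1.60 FPKM in wild-type cells, and 2.59 and 2.40 in knockout cells. Both knockout libraries stood above both wild-type libraries for each gene, by log2 ratios of 0.40 ± 0.14 and 0.78 ± 0.13 for Kmt2c and of 0.28 ± 0.15 and 0.39 ± 0.14 for Kmt2d. Kmt2e (MLL5), a relative that binds methylated H3K4, had 5.10 and 4.55 FPKM in the wild-type libraries against 6.97 and 7.96 in the knockout libraries. Of its exon bases 9.3% overlap Srpk2 on the opposite strand. Kmt2a (MLL1) had 1.54 and 1.14 FPKM in wild-type cells, and 1.97 and 1.85 in knockout cells. For Kmt2e and Kmt2a too the genotypes did not overlap, with log2 ratios at 24 h of 0.69 ± 0.13 and 0.41 ± 0.15. Kmt2b (MLL2) had 3.81 and 3.36 FPKM in the wild-type libraries against 3.87 and 3.92 in the knockout libraries, and Setd1a 3.79 and 3.82 against 4.26 and 3.92. Setd7, which monomethylates H3K4 and other proteins, had 6.73 and 4.41 FPKM in wild-type cells, and 7.499 and 4.71 in knockout cells, and tracked time more than genotype. The values of Setd1a are uncertain, since 51.8% of its exon bases overlap the locus Gm49388 on the same strand.

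Of the shared COMPASS partners, all 11 listed passed the filter, and 4 were higher in the knockout at 0 h and 3 at 24 h, where 34.6% and 38.1% of all genes were. Their median at 0 h equalled that of all genes, -0.07, and at 24 h it was -0.22 beside -0.09. Paxip1, a partner of Kmt2c and Kmt2d that lies on chromosome 5, was the highest at both times, with 8.38 and 7.65 FPKM in the wild-type libraries against 11.8 and 9.54 in the knockout libraries. Ash2l, a core subunit, was the lowest at 24 h, with 58.9 and 53.9 FPKM in wild-type cells, and 49.6 and 40.4 in knockout cells. Dpy30, a further core subunit, was the lowest at 0 h, with 67.7 and 56.9 FPKM in the wild-type libraries against 56.6 and 48.4 in the knockout libraries.

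Of the H3K36 enzymes, Whsc1 (Nsd2 in RefSeq, an H3K36 dimethyltransferase) differed most between genotypes. It had 22.9 and 17.5 FPKM in wild-type cells, and 34.6 and 26.7 in knockout cells, so that both knockout libraries stood above both wild-type ones. Its log2 ratio was 0.57 ± 0.08 at 0 h and 0.58 ± 0.08 at 24 h, and its response to estradiol was nearly equal in the genotypes, -0.37 ± 0.08 and -0.36 ± 0.07. Nsd1, a relative, had 9.87 and 7.80 FPKM in the wild-type libraries against 11.6 and 8.65 in the knockout libraries. Whsc1l1 (Nsd3) had 6.93 and 6.92 FPKM in wild-type cells, and 7.24 and 8.46 in knockout cells, and Ash1l, a trithorax-type enzyme, 3.796 and 2.88 against 4.19 and 3.49. Their genotype ratios at 24 h were 0.13 ± 0.29 for Nsd1, 0.26 ± 0.16 for Whsc1l1 and 0.21 ± 0.12 for Ash1l. Dot1l, the H3K79 methyltransferase, was also higher in the knockout, with 4.25 and 4.62 FPKM in the wild-type libraries against 5.47 and 5.71 in the knockout libraries. The SET-domain genes Setd3, Setd4, Setd5 and Setd6 were all 4 lower in the knockout at 0 h, where 34.6% of all genes were above 0. Their median was -0.11 beside -0.07 for all genes. Setd4 had the lowest genotype ratio of these, -0.48 ± 0.36 at 0 h and -0.36 ± 0.40 at 24 h. Setd5 was lower at 24 h in each genotype, with 18.9 and 13.8 FPKM in wild-type cells, and 17.6 and 12.4 in knockout cells. Setd3 ranged from 39.2 to 45.1 FPKM and Setd6, which methylates a subunit of NF-kappaB, from 20.7 to 25.9.

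**Figure D4:**
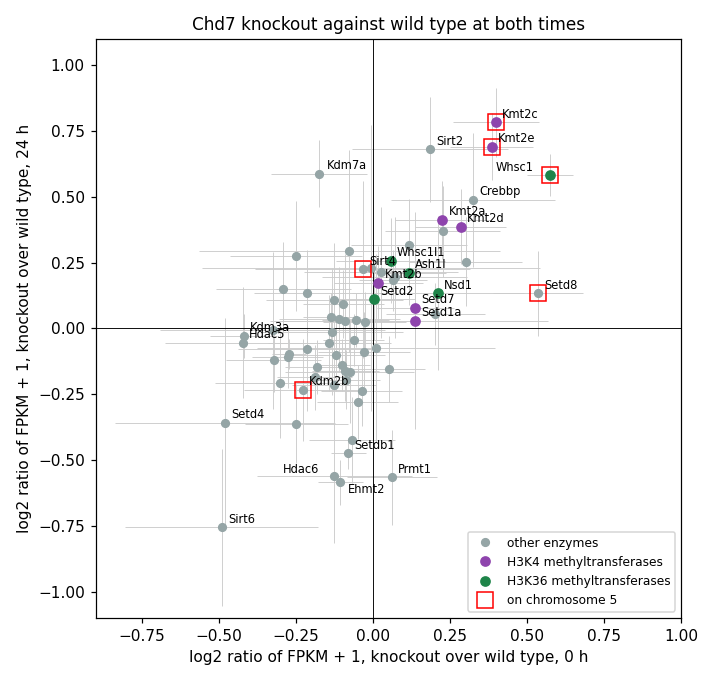
Log2 ratio of FPKM + 1 in the Chd7 knockout over wild type at 0 h (horizontal) and at 24 h of estradiol (vertical) for the 69 enzymes, with 95% counting intervals in grey. Purple points are H3K4 and green points H3K36 methyltransferases, and red squares mark genes on chromosome 5. The 7 purple and 5 green points all lie above 0 on both axes, with Kmt2c, Kmt2e and Whsc1 from chromosome 5 farthest out.

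Several of the enzymes that were higher in the knockout lie on chromosome 5, along which the knockout stood above wild type as a whole. The 578 genes of chromosome 5 had a median log2 ratio of 0.40 at 0 h and 0.34 at 24 h, with 94.3% and 89.8% of them above 0. The medians of the 19 other chromosomes lay between -0.13 and -0.06 at 0 h and between -0.15 and -0.07 at 24 h. Of the enzymes, 7 lie on chromosome 5 and 6 of these passed the filter, namely Whsc1, Kmt2c, Kmt2e, Setd8, Kdm2b and Sirt4. Their medians were 0.39 at 0 h and 0.40 at 24 h, against -0.08 and -0.01 for the 63 enzymes elsewhere. Whsc1, Kmt2c, Kmt2e and Setd8 were above 0 at both times. Kdm2b, an H3K36 demethylase of a Polycomb complex, was lower in the knockout at both times, with 5.92 and 4.91 FPKM in the wild-type libraries against 4.91 and 4.03 in the knockout libraries. Sirt4 was at -0.03 ± 0.35 at 0 h and 0.22 ± 0.34 at 24 h. Setd1b, the seventh, had 0.43 and 0.54 FPKM in wild-type cells, and 0.80 and 1.04 in knockout cells.

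Without their chromosome 5 members, all 5 remaining H3K4 and all 4 remaining H3K36 methyltransferases still had ratios above 0 at both times. Their medians were then 0.14 and 0.17 for H3K4, and 0.09 and 0.17 for H3K36, at 0 h and 24 h. Many of these ratios lay within their counting interval. At 0 h these were Ash1l (0.115 ± 0.122), Nsd1 (0.21 ± 0.28), Setd2 (0.003 ± 0.134), Whsc1l1 (0.06 ± 0.18), Kmt2b (0.02 ± 0.14) and Setd1a (0.14 ± 0.43). At 24 h they were Nsd1, Setd2, Setd1a and Setd7. The intervals of Nsd1, Setd2 and Setd1a rest on median coding transcripts of 1075, 2910 and 916 bases. Their longest ones have 12784, 8350 and 6487 bases and would give narrower intervals, so which of these 3 genes pass is not settled. Kmt2a and Kmt2d exceeded their interval at both times. The part of the chromosome in the ratios of Kmt2c, Kmt2e, Whsc1 and Setd8 was not tested. Among genes of related complexes, Trrap, a scaffold of SAGA, had 7.32 and 6.94 FPKM in the wild-type libraries against 10.7 and 12.5 in the knockout libraries. Pcgf3, a PRC1 subunit, had 2.71 and 3.33 FPKM in wild-type cells, and 4.39 and 7.81 in knockout cells. Both also lie on chromosome 5, and both had knockout values above both wild-type values. So did the PRC1 subunit Cbx6, which lies on chromosome 15, with 2.75 and 3.05 FPKM in wild-type cells, and 4.76 and 4.38 in knockout cells. Among the PRC1 genes 12 passed the filter, with 6 above 0 and 6 below at each time and medians of -0.06 and 0.01 beside -0.07 and -0.09 for all genes.

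The enzymes also have long transcripts, and the genotype ratio at 24 h went with transcript length over all genes. The longest coding transcript had a median of 4.65 kb over the 69 enzymes and 3.04 kb over the 8601 genes with a length, and it reached 8 kb in 16 enzymes (23.2%) and in 430 genes (4.999%). Over all genes the median log2 ratio at 24 h was -0.19 for transcripts under 2 kb, -0.11 from 2 to 4 kb, -0.01 from 4 to 8 kb and 0.08 at 8 kb or more. At 0 h the same medians ran from -0.10 to -0.01. For the difference of responses they ran from -0.09 to 0.10. The 16 enzymes of 8 kb or more, among them Kmt2a, Kmt2b, Kmt2c, Kmt2d, Crebbp, Nsd1 and Kdm7a, had a median of 0.20 at 24 h with 13 above 0. With each ratio centred on the median of its length class, the H3K4 methyltransferases stood at 0.23 and 0.30 and the H3K36 methyltransferases at 0.12 and 0.13, all 7 and all 5 above 0 at both times. The same centring took the median of all 69 enzymes to 0.04 both at 24 h and for the difference of responses. It placed Kdm3a, Kdm7a and Sirt2 past 2-fold in the knockout response, with Prmt1 at -0.94.

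**Figure D5:**
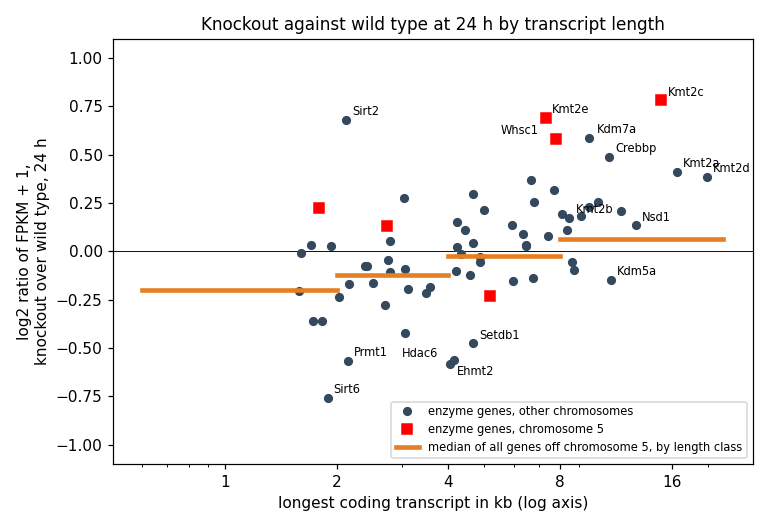
Log2 ratio of FPKM + 1 in the Chd7 knockout over wild type at 24 h against the longest coding transcript in kb on a log axis, for the 69 enzymes. Red squares are enzymes on chromosome 5, and orange bars are medians of all genes off chromosome 5 in 4 length classes. The bars climb with length, and Kmt2a, Kmt2d, Crebbp and Kdm7a lie above the bar of their class, as do Kmt2c, Kmt2e and Whsc1.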

How the data were processed

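The 4 RNA libraries of G1ER cells are 1 per group. Genotype and time come from the sample titles, since the treatment label reads estradiol for all 4. The authors deposited 1 table of FPKM per gene symbol and library. Per the submitters' processing notes, FastQC, cutadapt, TopHat2 2.0.11, Cufflinks 2.2.1 and the mouse build GRCm38 were used. Not given in the sources used here are the annotation, the handling of reads mapping to several places, strand use and how libraries were scaled to each other. Columns were matched to libraries by the names in their descriptions. One column name, that of the 24 h knockout, carries a further suffix.

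Members and lists were chosen with earlier results of these data known. All 77 members were located in RefSeq, 4 of them through an older symbol. The statistic was the log2 ratio of FPKM + 1 over the 8964 genes averaging at least 1 FPKM, in 5 comparisons, with calls at 2-fold and 1.5-fold and no p-values. Tests on simulated ratios and depths recovered the values they were made with. The simulation used the same transcript lengths as the depth search. It therefore checks the computation and not the lengths or scaling behind the deposited values.

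FPKM holds no total count. Depth was approximated from the FPKM step worth 1 fragment in genes with transcripts of at least 3 kb, searched between 10 M and 25 M (M, mega). Of the low values, 50.0% to 64.8% were then whole within 0.05 fragment, where a median of 5.21% to 7.58% was whole over the search range. As the scaling is not given, the depths may describe a rescaled total.

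Named with 4 values are members past 2-fold, the 5 highest and 5 lowest per comparison, the 5 most abundant, preset paralogue pairs, chromosome 5 members, and the extremes of partner lists. Some genes of the partner lists are not reported here. Ranges are given for most others. Transcript lengths and exon overlaps come from the GENCODE annotation of GRCm38. The alternatives were a pseudocount of 0.1 or of 5 FPKM, no filter or one at a mean of 5 FPKM, TPM scaling with and without small RNA and predicted loci, median centring, upper-quartile scaling, a 1.5-fold mark and omission of chromosome 5. Centring by transcript length was added after seeing the data. Python 3.11.15, numpy 2.4.6, pandas 2.3.3, scipy 1.17.1, matplotlib 3.10.9 and bedtools 2.31.1 were used.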

Additional observations from a re-analysis of the deposited data

Results flagged for a closer look

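Kmt2c was the one enzyme whose estradiol response went opposite ways in the genotypes by more than counting error in each. Its log2 ratio over 24 h was -0.16 ± 0.14 in wild type against 0.22 ± 0.12 in the knockout, a difference of 0.38. With 1 library per group this difference between genotypes was not tested. Kmt2c lies on chromosome 5 and has a longest coding transcript of 14967 bases, and the part of either in this difference was not tested. The wild-type ratio passed its counting error narrowly and is measured from 0. The wild-type median was -0.11 for all genes and -0.25 for genes of 8 kb or more. TPM scaling moved the all-gene wild-type median to 0.11, so the opposite directions are stated only for FPKM as deposited.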

How the results depend on the processing

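Prmt1 (knockout response) was past 2-fold as deposited, with pseudocounts of 0.1 and 5 FPKM and under TPM scaling without small and predicted loci. Another filter or omission of chromosome 5 cannot change the ratio of a single gene, so those settings are no check of it. TPM scaling counted 1 enzyme past 2-fold in the wild-type response (Prmt10), 21 in the knockout response, 8 between genotypes at 0 h and 9 in the difference of responses. It gave medians of 0.032, 0.83, -0.79 and 0.83 in that order, beside all-gene medians of 0.11, 0.83, -0.78 and 0.72. It reversed the knockout response of Ehmt2 (0.25), Hdac6 (0.076), Kat2a (0.16), Setd4 (0.081) and Setd8 (0.36), and the difference of responses of Prmt1 (0.20). These 6 values stayed below the all-gene medians. TPM scaling without small and predicted loci gave medians between genotypes of 0.0097 at 0 h and 0.13 at 24 h. A pseudocount of 0.1 FPKM counted 1 enzyme in the wild-type response (Setd4) and 3 in the knockout response (Hdac5, Kdm7a and Prmt1), and one of 5 FPKM gave a wild-type median of -0.14. Median centring gave medians of -0.094 in the wild-type and 0.015 in the knockout response, and upper-quartile scaling gave -0.13 in the wild-type response. The 1.5-fold mark counted 3 enzymes in the wild-type response, 15 in the knockout response, 5 between genotypes at 24 h and 2 in the difference of responses. Centring by transcript length counted 3 in the knockout response, and its medians were -0.033 in the wild-type response, 0.042 in the knockout response and 0.0016 between genotypes at 0 h. The cause of these shifts was not tested, beyond what each setting changes by its construction. The median between genotypes at 24 h, 0.028 as deposited, was -0.021 with the filter at a mean of 5 FPKM and -0.0072 without chromosome 5. Of the other results, 81 counts and medians stayed near their value, these 2 among them, and so did the knockout-response count of 1 under median centring and upper-quartile scaling, where it was Kdm7a (higher) and not Prmt1 (lower). For single genes, each value being a gene in 1 comparison under 1 setting, 204 values held. Unchanged by construction among these were 25 with no filter, 16 with the filter at 5 FPKM and 22 without chromosome 5. A further 28 values kept their direction but slipped under 1.5-fold, 18 of them with the pseudocount of 5 FPKM. No library could be left out and no paired analysis was possible because each group has 1 library. Counting intervals reached ± 0.55 for a ratio, for Ep300 at a mean of 4.59 FPKM, where the median coding transcript used is 499 bases long.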
